A study of Mus musculus with 9 samples.

Results

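The CHD family comprises the 9 mouse genes Chd1 to Chd9, which encode chromodomain helicase DNA-binding proteins. Its members were taken by gene symbol and Ensembl identifier, and all 9 were among the 43629 genes of the table and among the 15997 genes with enough signal to be tested. They were followed in RNA from c-KIT+ bone marrow cells of C57BL/6 mice in 3 groups of 3 libraries. The KI_Chd7del group carried Chd7f/f, Mx1-Cre and Cbfb+/56M, the KI group carried Mx1-Cre and Cbfb+/56M with an unfloxed Chd7, and the WT group carried none of these alleles by its label. Mice of all 3 groups received pIpC, a double-stranded RNA that induces interferon and thereby switches on a Cre recombinase driven by the Mx1 promoter. The 56M allele is a conditional Cbfb knock-in that yields the Cbfb-MYH11 fusion of a human acute myeloid leukaemia, here in heterozygous form. Comparing KI with WT therefore measures the fusion and Cre together, and Mx1-Cre acts in other interferon-responsive tissues besides blood-forming cells. Cells were enriched with a magnetic CD117 selection kit. The labels give neither the age of the mice nor whether each library came from its own mouse, and a p-value here reflects only how much these libraries vary, which may be technical.

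CHD proteins use the energy of ATP to slide, space, evict or exchange nucleosomes, and they share tandem chromodomains followed by an SNF2-like ATPase. CHD1 and CHD2 carry a separate DNA-binding domain and act largely on transcribed genes. CHD3, CHD4 and CHD5 carry PHD fingers and are alternative ATPases of the NuRD complex, which joins nucleosome remodelling to histone deacetylation. CHD6, CHD7, CHD8 and CHD9 carry BRK domains and are often found at enhancers and promoters. In humans, heterozygous CHD7 loss causes CHARGE syndrome, a developmental disorder of several organs.

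The ATPase is shared with other remodeller families, and its DEAH box, the motif that binds magnesium and ATP for hydrolysis, shows how close the CHD members are to each other. The 48 coding bases that start 2 codons before this box are printed 5′ to 3′ from the transcript with the longest complete coding sequence of each gene in GENCODE M21, with the codons for DEAH in capitals.
Chd1: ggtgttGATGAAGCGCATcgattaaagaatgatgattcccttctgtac
Chd2: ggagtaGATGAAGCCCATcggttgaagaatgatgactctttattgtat
Chd3: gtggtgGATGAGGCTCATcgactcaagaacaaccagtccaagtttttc
Chd4: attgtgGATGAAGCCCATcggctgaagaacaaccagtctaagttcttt
Chd5: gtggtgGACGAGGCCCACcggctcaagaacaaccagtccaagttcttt
Chd6: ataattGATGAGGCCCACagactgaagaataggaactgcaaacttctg
Chd7: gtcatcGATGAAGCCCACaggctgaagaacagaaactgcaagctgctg
Chd8: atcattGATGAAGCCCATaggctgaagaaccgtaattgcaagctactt
Chd9: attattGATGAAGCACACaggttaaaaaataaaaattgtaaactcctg
In Chd7 the stretch lies at chr4:8828337-8828384 on the plus strand of GRCm38, in exon 13 of 38, in the coding sequence for a protein of 2986 residues. In Chd3 it lies at chr11:69356652-69356979 on the minus strand and is split between exons 16 and 17 of 40. Chd3 and Chd5 shared 42 of the 48 bases, Chd4 and Chd5 41, Chd7 and Chd8 40, Chd3 and Chd4 39, and Chd1 and Chd2 37. Over the 10 pairs within a subfamily the range was 34 to 42 identical bases, against 25 to 34 over the 26 pairs between subfamilies. This likeness bears on whether short reads can be assigned to 1 member. No pair of members among 36 shared a run of 50 bases in any annotated transcript. At 30 bases, Chd3 and Chd4 shared 10 runs, Chd8 and Chd9 shared 3 and Chd4 and Chd5 shared 1.

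The deposited values per gene are whole numbers that, by the gaps among their low values, appear to be read numbers divided by a size factor for each library and rounded. They are called normalised values here. They summed, in units of 1000000, to 37.5 to 38.1 in KI_Chd7del, 37.7 to 39.0 in KI and 43.2 to 46.2 in WT libraries, and an estimate of the size factors put the reads behind them at 39.3 to 47.5 per library in the same unit. Kit, the gene of the selected marker, had 6131, 7732 and 8508 in KI_Chd7del, 3868, 3226 and 3521 in KI, and 7362, 7354 and 7797 in WT libraries. All 8 progenitor markers were above 0 in every library, and together they held 0.598 to 0.806% of the total in KI_Chd7del, 0.386 to 0.475% in KI and 0.531 to 0.624% in WT. Markers of other cells were also present. All 15 late neutrophil markers were above 0 in every library and held 4.27 to 5.63% in KI_Chd7del, 1.12 to 2.94% in KI and 11.6 to 13.8% in WT. The 12 monocyte and macrophage markers held 0.27 to 0.302% in KI_Chd7del, 0.567 to 0.64% in KI and 0.0861 to 0.0928% in WT, and none was at 0. The 12 erythroid markers, none at 0, held 0.0578 to 0.103%, 0.276 to 0.418% and 0.0968 to 0.114% in KI_Chd7del, KI and WT. The 12 mast cell, basophil and eosinophil markers held 0.214 to 0.316% in KI_Chd7del, 0.294 to 0.454% in KI and 0.102 to 0.142% in WT, with Mcpt1 at 0 in at least 1 library. The 10 B cell markers, none at 0, held 0.0367 to 0.076%, 0.0301 to 0.043% and 0.0151 to 0.0185% in KI_Chd7del, KI and WT. The marker shares thus differed between the groups along with the family, and their part in each result below was not tested. In bulk RNA, fewer cells of a type and less RNA per cell cannot be told apart.

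Chd7 itself was lower in both mutant groups than in WT. It had 1862, 1794 and 1921 normalised reads in KI_Chd7del, 1979, 2934 and 2009 in KI, and 3471, 3745 and 3982 in WT libraries. The KI_Chd7del libraries were all below the KI libraries, and both mutant groups were below every WT library. KI_Chd7del stood at 0.499 of the WT level, a log2 fold change of -1.0 (SE 0.14, 95% interval -1.31 to -0.70, adjusted p = 0.000374). KI, in which Chd7 is not floxed, stood at 0.609 of the WT level (log2 -0.72, SE 0.14, adjusted p = 0.00154). KI_Chd7del differed from KI by -0.29 on the log2 scale, with a 95% interval of -0.59 to 0.02 and an adjusted p of 0.121, so this difference did not pass. The test rests on limma's fit across all 15997 genes, and 1 KI library decides much of it. With KI library 2 left out, the difference between KI_Chd7del and KI was -0.10 and that between KI and WT was -0.90. In KI the spread of Chd7 between libraries was 23.5% of its mean, against 2.08% from read counting. That library also had the highest late neutrophil share of the KI group, 2.94% against 1.84% and 1.12% in the other KI libraries. Across the groups the late neutrophil share ran KI below KI_Chd7del below WT. The mean of Chd7 ran KI_Chd7del below KI below WT, but its difference between the mutant groups did not pass and leans on KI library 2. Any link between the share and Chd7 was not tested. The Chd7 values are for the whole gene. A deletion that removes an inner exon need not lower them, so they neither show nor measure recombination at the Chd7 locus.

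**Figure D1:**
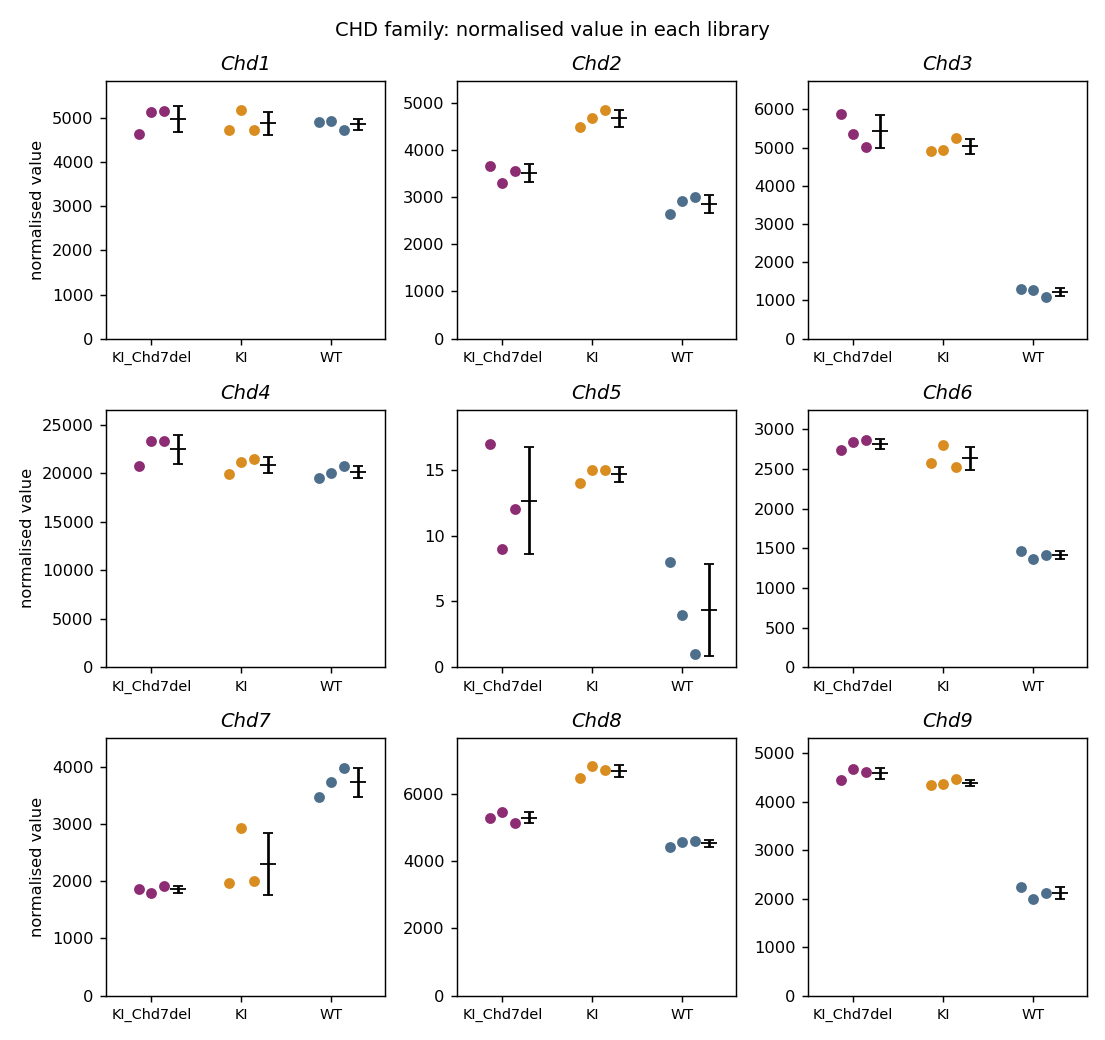
Normalised value (vertical axis, from 0, with its own scale for each gene) of the 9 CHD genes in KI_Chd7del, KI and WT libraries. Each point is 1 library and the bar beside each group is the mean with its SD over 3 libraries. Chd3, Chd6 and Chd9 lie higher in both mutant groups than in WT, Chd7 lies lower, Chd2 and Chd8 peak in KI, and Chd1 and Chd4 are nearly level.

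Across the family in KI against WT, 6 of the 9 members rose, 1 fell and 2 did not pass. Over all 15997 genes tested, 31.8% were called higher and 27.2% lower, 58.9% in all. Chd5 passed the filter on low values only through the mutant libraries, where it is higher, which favours a difference from WT. Of the other 8 members, 5 rose and 1 fell. The groups did not overlap for 6 of these 8, 5 higher and 1 lower, and for 67.6% of all genes tested. The median log2 fold change of those 8 members was 0.64 and that of all genes tested was 0.02. The table's scaling matters for such counts: after scaling each library to its column total, the median of all genes was 0.25 and 74.2% of the calls were higher, against 53.9% as deposited, whereas upper-quartile scaling gave 45% and quantile normalisation 44.9%. The balance of higher to lower calls in KI against WT therefore turns with the scaling.

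Chd1 and Chd2, the pair with a DNA-binding domain, did not move together. CHD1 is tied to elongating RNA polymerase and spaces nucleosomes over gene bodies. Chd1 had 4635, 5145 and 5159 in KI_Chd7del, 4727, 5179 and 4736 in KI, and 4903, 4945 and 4725 in WT libraries, and the 3 groups overlapped. Its log2 fold change was 0.01 in KI against WT (95% interval -0.13 to 0.14, adjusted p = 0.94) and 0.03 in KI_Chd7del against KI (95% interval -0.10 to 0.16, adjusted p = 0.723), and 0.03 in KI_Chd7del against WT (adjusted p = 0.66). As deposited, the intervals of the KI against WT and KI_Chd7del against KI differences reach no further than 0.16, and that of KI_Chd7del against WT reaches 0.17. After scaling to the column total, Chd1 passed against WT, at 0.24 in KI and 0.28 in KI_Chd7del. The medians of all genes were then 0.25 and 0.26.

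CHD2 is a remodeller of transcribed chromatin, and loss of 1 human copy causes an epileptic encephalopathy. Chd2 had 3665, 3306 and 3547 in KI_Chd7del, 4475, 4674 and 4844 in KI, and 2633, 2914 and 2993 in WT libraries. The groups did not overlap in any pairing, with KI_Chd7del in the middle. Chd2 rose in KI over WT by 0.71 on the log2 scale (SE 0.06, adjusted p = 1.57e-05), fell in KI_Chd7del against KI by 0.41 (SE 0.06, adjusted p = 0.00136) and remained above WT in KI_Chd7del by 0.30 (SE 0.06, adjusted p = 0.00412). The monocyte and macrophage share had the same order of groups. The mast cell, basophil and eosinophil share did too, with KI_Chd7del and KI overlapping, and the late neutrophil share had the reverse order. The means of the progenitor, erythroid and B cell shares followed neither order. The exons of Chd2 share 2628 bases with 1810026B05Rik, a transcript on the same strand, which had 225 to 296 in KI_Chd7del, 384 to 592 in KI and 265 to 336 in WT libraries. How reads in those shared bases were divided is not given in the sources used here.

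Among the NuRD ATPases, Chd3 showed the widest change of the family and Chd4 was nearly level. Chd3 had 5891, 5363 and 5027 in KI_Chd7del, 4900, 4933 and 5263 in KI, and 1310, 1268 and 1092 in WT libraries. Every mutant library lay above every WT library, and the mutant groups overlapped. Chd3 rose 4.44-fold in KI_Chd7del over WT (log2 2.15, SE 0.08, 95% interval 1.97 to 2.33, adjusted p = 1.89e-06) and 4.12-fold in KI over WT (log2 2.04, SE 0.08, 95% interval 1.86 to 2.23, adjusted p = 2.52e-07). The change in KI against WT was larger in size than that of 90.2% of all genes tested, and the change in KI_Chd7del against WT was larger than that of 95.6%. KI_Chd7del and KI differed by 0.11 (95% interval -0.08 to 0.29, adjusted p = 0.322).

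CHD4, also called Mi-2 beta, is the main NuRD ATPase of most cells and is required for the upkeep of mouse haematopoietic stem cells. Chd4 had 20787, 23340 and 23321 in KI_Chd7del, 19948, 21197 and 21482 in KI, and 19490, 20089 and 20738 in WT libraries. All KI_Chd7del libraries lay above all WT libraries, by a small margin between 20787 and 20738, while KI overlapped both. None of its log2 fold changes passed as deposited: 0.16 in KI_Chd7del against WT (95% interval 0.02 to 0.30, adjusted p = 0.0617), 0.11 in KI_Chd7del against KI (adjusted p = 0.207) and 0.05 in KI against WT (adjusted p = 0.483). Scaling to the column total made the changes of Chd4 against WT pass, at 0.41 in KI_Chd7del and 0.28 in KI, beside a shift of 0.26 and 0.25 in the median of all genes. The same scaling gave Chd1 0.28 and 0.24, also past the threshold.

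CHD5, a NuRD ATPase best known from brain and testis, was barely detected. Chd5 had 17, 9 and 12 in KI_Chd7del, 14, 15 and 15 in KI, and 8, 4 and 1 in WT libraries. Summed over 3 libraries these are 38 (exact Poisson 95% interval 26.9 to 52.2), 44 (32 to 59.1) and 13 (6.92 to 22.2) in KI_Chd7del, KI and WT, intervals that take 1 unit as about 1 read and cover counting error only. Only mutant libraries, where Chd5 is higher, brought it past the filter on low values, which favours a difference from WT. Its limma tests against WT are therefore given as description only. The log2 fold changes were 1.57 in KI_Chd7del against WT (adjusted p = 0.0287) and 1.81 in KI against WT (adjusted p = 0.0122), with an SE of 0.50 for each. At such low values they depend on the pseudocount: adding 16 in place of 1 gave 0.50 and 0.61. Leaving out 1 library gave 0.98 to 2.07 in KI_Chd7del against WT and 1.22 to 2.31 in KI against WT, the lowest in both without WT library 3. The call in KI_Chd7del against WT was lost without KI_Chd7del library 1 (adjusted p = 0.0827) or 3 (0.0616), and without WT library 2 (0.0582) or 3 (0.068).

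Chd6 and Chd9 rose in both mutant groups by similar amounts. CHD6 has been linked to the oxidative stress response and CHD9 to gene activity in bone-forming progenitors. Chd6 had 2741, 2839 and 2863 in KI_Chd7del, 2577, 2803 and 2521 in KI, and 1465, 1365 and 1416 in WT libraries. Chd9 had 4454, 4676 and 4607 in KI_Chd7del, 4346, 4362 and 4459 in KI, and 2240, 1989 and 2122 in WT libraries. For both genes each mutant library was above each WT library and the mutant groups overlapped. Chd6 rose 1.99-fold in KI_Chd7del over WT (log2 0.99, SE 0.06, adjusted p = 4.64e-06) and 1.86-fold in KI over WT (log2 0.89, SE 0.06, adjusted p = 1.95e-06). Chd9 rose 2.16-fold in KI_Chd7del over WT (log2 1.11, SE 0.05, adjusted p = 2.47e-06) and 2.08-fold in KI over WT (log2 1.05, SE 0.05, adjusted p = 6.33e-07). KI_Chd7del against KI gave 0.10 for Chd6 (95% interval -0.03 to 0.22, adjusted p = 0.188) and 0.06 for Chd9 (95% interval -0.06 to 0.18, adjusted p = 0.373), neither of which passed. Chd9 and Chd3 were thus among the 14.5% of genes tested that passed and were at least 2-fold higher in KI than in WT, and in KI_Chd7del against WT they were among 9.93% of genes.

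CHD8 is a repressor of beta-catenin target genes and, in humans, one of the genes most often mutated in autism. Chd8 had 5295, 5473 and 5142 in KI_Chd7del, 6493, 6838 and 6707 in KI, and 4428, 4563 and 4609 in WT libraries. As with Chd2, the groups did not overlap and KI_Chd7del lay in the middle. Chd8 rose in KI over WT by 0.56 on the log2 scale (SE 0.04, adjusted p = 7.64e-06). It fell in KI_Chd7del against KI by 0.33, to 0.794 of the KI level (SE 0.04, adjusted p = 0.000636), and it was 0.23 above WT in KI_Chd7del (SE 0.04, adjusted p = 0.00273). An antisense gene over its exons, Gm26590, had at most 12 in any library.

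In KI_Chd7del against KI, then, 2 of the 9 members fell, Chd2 and Chd8, and none rose. In that comparison 22.9% of all genes tested were called lower and 17.5% higher, 40.4% in all. Chd7 too was lower in every KI_Chd7del library than in every KI library, without passing, and 52.0% of all genes tested did not overlap between these groups. At an unadjusted p under 0.05 the count of members higher in KI_Chd7del than in KI was also 0 in the limma fit. At an adjusted p under 0.05 the count was 0 with limma-voom. It was 1 with upper-quartile scaling (Chd6), 2 with quantile normalisation (Chd6 and Chd9) and 1 without KI_Chd7del library 1 (Chd4). In KI_Chd7del against WT, 6 members rose, 1 fell and 2 did not pass, or 5, 1 and 2 of the 8 without Chd5, against 24.0% of all genes called higher and 24.3% called lower, 48.4% in all. Without Chd5, the libraries of KI_Chd7del and WT did not overlap for 6 members that were higher, Chd4 included, and 1 that was lower, and for 57.6% of all genes tested. The median log2 fold change of the 8 members without Chd5 was 0.04 in KI_Chd7del against KI and 0.27 in KI_Chd7del against WT, beside -0.01 and 0.02 for all genes. The comparisons share libraries, so each is given by its own values only.

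**Figure D2:**
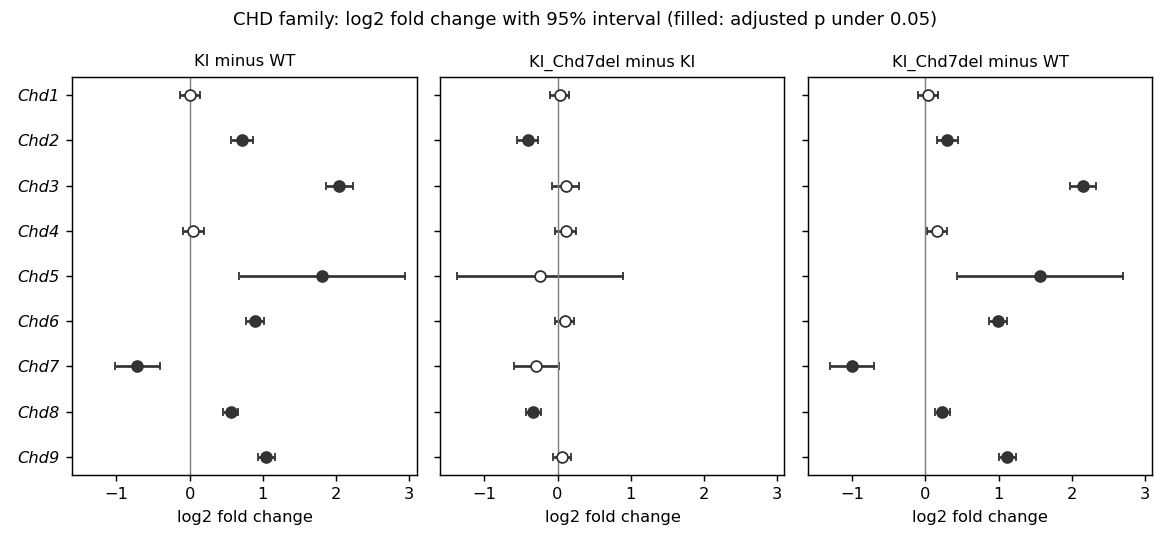
Log2 fold change of each CHD gene (horizontal axis) in KI against WT, KI_Chd7del against KI and KI_Chd7del against WT. Points are estimates from the limma fit, lines are 95% intervals and filled points passed at an adjusted p under 0.05. Chd3 reaches 2.04 and 2.15 against WT, Chd7 reaches -0.72 and -1.0, and in KI_Chd7del against KI the filled points are Chd2 at -0.41 and Chd8 at -0.33.

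Levels of different members were compared per kb of exon, using the union of the annotated exons of each gene, from 8.019 kb for Chd4 to 23.148 kb for Chd9. Chd4 led in every group, with mean levels of 2800 per kb in KI_Chd7del, 2600 in KI and 2510 in WT libraries. It held 55.3% of the summed level of the family per kb in KI_Chd7del, 52.2% in KI and 60.9% in WT. Below Chd4 the order differed between groups. In WT it ran Chd1 at 557, Chd8 at 274, Chd7 at 271, Chd2 at 199, Chd3 at 145, Chd9 at 91.5, Chd6 at 74.1 and Chd5 at 0.452 per kb, and among these neighbours only Chd8 and Chd7 overlapped between libraries. In KI_Chd7del the mean levels ran Chd3 at 643, Chd1 at 571, Chd8 at 321, Chd2 at 245, Chd9 at 198, Chd6 at 147, Chd7 at 135 and Chd5 at 1.32 per kb. The libraries of each neighbouring pair there were apart, from Chd3 at 595 to 698 over Chd1 at 531 to 592, down to Chd6 at 144 to 150 over Chd7 at 130 to 139. In KI, Chd3 at 580 to 623 overlapped Chd1 at 542 to 594, and Chd7 at 144 to 213 overlapped both Chd9 at 188 to 193 and Chd6 at 132 to 147. Chd3 thus held 12.7% of the family level in KI_Chd7del, 12.0% in KI and 3.52% in WT, and Chd7 held 2.66%, 3.35% and 6.57% in the same groups. The order depends on the length used. Per kb of the longest transcript, Chd8 at 785 stood above Chd3 at 693 in KI. Chd6 at 250 stood above Chd7 at 226 there, but its libraries, at 240 to 267, lay within the range of Chd7, 194 to 287. On that length Chd9 at 176 stood above Chd3 at 168 in WT, with overlapping libraries. In KI_Chd7del, Chd1 at 586 to 652 then overlapped Chd8 at 604 to 643, and Chd2 at 364 to 403 overlapped Chd9 at 371 to 389.

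**Figure D3:**
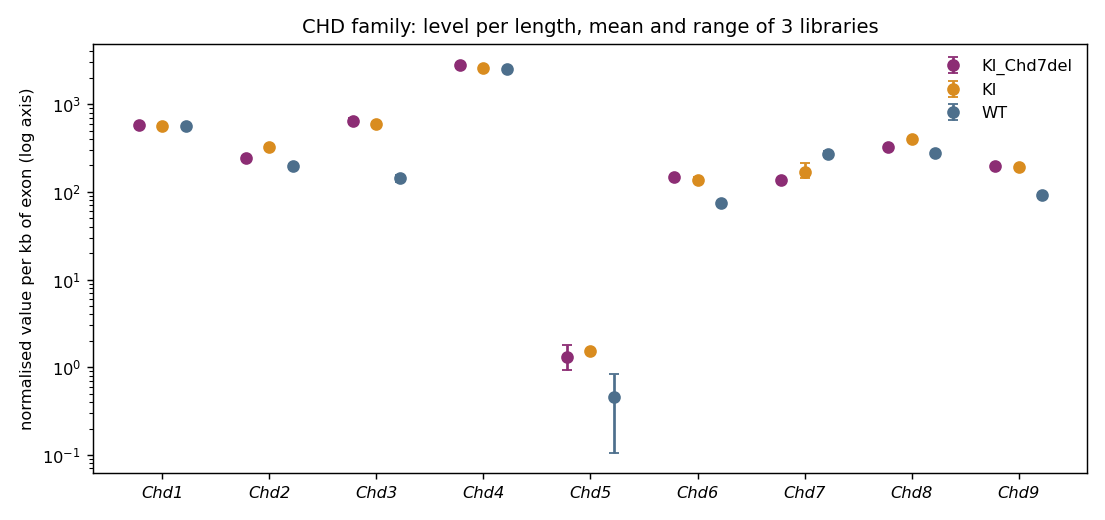
Normalised value per kb of exon (vertical log axis) of the 9 CHD genes in KI_Chd7del, KI and WT. Points are means and bars span the lowest to the highest of 3 libraries. Chd4 is on top in each group at 2510 to 2800 per kb, Chd5 lies near 1, and Chd3 and Chd7 change places between the mutant groups and WT.

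Ratios of members within a library do not depend on how libraries were scaled. The ratio of Chd7 to the geometric mean of Chd6, Chd8 and Chd9, its subfamily, was 0.464, 0.43 and 0.471 in KI_Chd7del, 0.474, 0.671 and 0.476 in KI, and 1.42, 1.62 and 1.66 in WT libraries. It was 0.291 times the WT value in KI_Chd7del (log2 difference -1.78) and 0.341 times in KI (log2 -1.55), and KI_Chd7del differed from KI by -0.23. The groups did not overlap in any of these pairings, but KI library 2 again stood above the other KI libraries, and without it KI_Chd7del differed from KI by -0.06. The ratio of Chd3 to Chd4 was 0.283, 0.23 and 0.216 in KI_Chd7del, 0.246, 0.233 and 0.245 in KI, and 0.0673, 0.0632 and 0.0527 in WT libraries. It was 3.97 times the WT value in each mutant group, and the mutant groups overlapped. The ratio of Chd1 to Chd2 was 1.26, 1.56 and 1.45 in KI_Chd7del, 1.06, 1.11 and 0.978 in KI, and 1.86, 1.7 and 1.58 in WT libraries, with KI_Chd7del between the other groups. In 2-sided exact permutation tests each of the differences between groups that did not overlap had p = 0.1, the smallest that 3 against 3 libraries can give, and an adjusted p of 0.113 over 9 tests. Chd3 to Chd4 in KI_Chd7del against KI had an exact permutation p of 1.

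**Figure D4:**
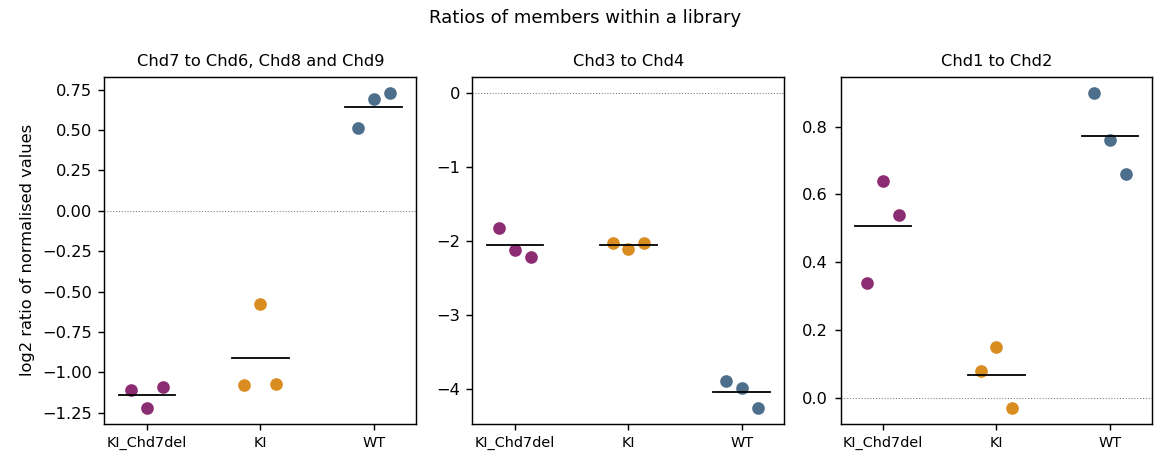
Log2 ratio of normalised values within each library (vertical axis) for Chd7 to the geometric mean of Chd6, Chd8 and Chd9, for Chd3 to Chd4 and for Chd1 to Chd2, in KI_Chd7del, KI and WT. Points are libraries and the dotted line marks a ratio of 1. WT libraries are above both mutant groups for Chd7, below both for Chd3 to Chd4 and above both for Chd1 to Chd2.

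Promoter windows from RefSeq (build GRCm38.p6, 250 bases before to 50 after the start of a gene) were available for 5 of the 9 members, Chd4, Chd5, Chd6, Chd8 and Chd9. The 250 upstream bases of Chd6 and Chd8 are shown because these genes share a subfamily and both rose in KI, but differed in KI_Chd7del against KI. Chd6 lies at chr2:161109087-161109336 and Chd8 at chr14:52257761-52258010, both on the minus strand, and CG dinucleotides are in capitals.
Chd6: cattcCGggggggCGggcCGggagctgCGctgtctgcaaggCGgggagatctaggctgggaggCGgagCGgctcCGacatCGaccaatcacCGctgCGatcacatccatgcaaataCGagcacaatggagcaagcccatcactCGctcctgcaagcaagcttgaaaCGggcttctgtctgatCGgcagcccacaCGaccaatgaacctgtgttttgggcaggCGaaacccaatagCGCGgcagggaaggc
Chd8: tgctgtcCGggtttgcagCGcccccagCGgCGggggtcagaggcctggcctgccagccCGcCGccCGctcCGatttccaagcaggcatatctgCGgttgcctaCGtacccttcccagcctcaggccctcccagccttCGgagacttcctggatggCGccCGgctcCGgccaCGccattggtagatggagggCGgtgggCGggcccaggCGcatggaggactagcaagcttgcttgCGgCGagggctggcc
The upstream bases held 19 and 20 CG dinucleotides in Chd6 and Chd8. The whole windows of 300 bases held 20 and 26, more than 73.5% and 83.1% of the 32851 windows in the table. TGTGGT, a core motif bound by RUNX proteins, the DNA-binding partners of CBFB, was searched on both strands. It was in none of the 8 windows of these 5 members, and 16.8% of all windows hold it. The variant TGCGGT, which the printed Chd8 bases hold, was not searched in any window. The result covers the spelling TGTGGT only and does not show that these windows lack a RUNX site. The windows of Chd4 overlap each other, as do those of Chd5, so the 8 are not separate sequences.

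The partner genes come from lists by complex, written with earlier results of these data known. Their counts are to be read against all genes tested, of which 31.8% were called higher and 27.2% lower in KI against WT, 17.5% and 22.9% in KI_Chd7del against KI, and 24.0% and 24.3% in KI_Chd7del against WT. They also depend on the scaling, as given for each list. In KI against WT, 2 of 12 NuRD subunits other than the CHD proteins rose and 6 fell, with a median log2 fold change of -0.17. Scaling to the column total turned this to 5 higher and 2 lower, and upper-quartile scaling gave 2 and 8. Mta3, a subunit best known from germinal centre B cells, rose by 0.95 (adjusted p = 4.07e-06) and Gatad2b, which bridges CHD4 to the deacetylase core, rose by 0.70 (adjusted p = 7.45e-06). Hdac2, 1 of the deacetylases, fell by 0.40 (adjusted p = 4.36e-05) and Mbd2, which binds methylated DNA, fell by 0.51 (adjusted p = 8.18e-05). In KI_Chd7del against KI, 4 rose and 2 fell, with Hdac2 at 0.33 (adjusted p = 0.000544), Cdk2ap1 at 0.32 (0.00195), Mta3 at -0.49 (0.000782) and Gatad2b at -0.30 (0.00294). Against WT, KI_Chd7del had 3 higher and 3 lower (7 and 1 with the column total, 5 and 1 with quantile normalisation), among them Mta3 at 0.47, Gatad2b at 0.40, Mbd2 at -0.65 and Hdac1 at -0.37 (adjusted p 0.000502, 0.000411, 4.75e-05 and 0.00624). Thus Chd3 and Mta3 were both higher in each mutant group than in WT, but between the mutant groups Mta3 fell and the change of Chd3 did not pass.

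ADNP and HP1 proteins form the ChAHP complex with CHD4. Of these 5 genes, 2 rose in KI over WT, Adnp by 1.14 (adjusted p = 0.00368) and Cbx5 by 0.27, but Adnp was low throughout, at 27, 47 and 39 in KI_Chd7del, 46, 55 and 51 in KI, and 18, 25 and 25 in WT libraries. In KI_Chd7del against KI, 2 rose and 2 fell, all by 0.21 or less on the log2 scale, and Adnp was the 1 gene of 5 called in KI_Chd7del against WT (0.69, adjusted p = 0.0479). With upper-quartile scaling 1 of the 5 was higher and 2 were lower in KI against WT, and none was called in KI_Chd7del against WT. With the column total 3 were higher in KI and 4 in KI_Chd7del, each against WT. In KI_Chd7del against KI no gene of the list was lower with the column total, upper-quartile scaling or quantile normalisation. Of 8 genes of the FACT, PAF and SPT5 elongation factors, with which CHD1 associates, 3 rose and 3 fell in KI against WT, 1 rose and 1 fell in KI_Chd7del against KI, and 1 rose and 2 fell in KI_Chd7del against WT. In KI against WT the column total turned this to 4 higher and 1 lower, and upper-quartile scaling to 1 higher and 4 lower. In KI_Chd7del against WT the column total gave 5 higher and 0 lower and quantile normalisation 3 and 1, and in KI_Chd7del against KI upper-quartile scaling and quantile normalisation each gave 3 and 0. Ssrp1, a FACT subunit, fell by 0.53 in KI against WT (adjusted p = 6.39e-05), rose by 0.23 in KI_Chd7del over KI (adjusted p = 0.0153) and was 0.30 below WT in KI_Chd7del (log2 -0.30, adjusted p = 0.00291).

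The list around CHD7 and CHD8 holds 12 genes, including RUNX1, subunits of the PBAF remodeller and of the WDR5 methyltransferase core, CTCF and beta-catenin. In KI against WT, 5 rose and 3 fell; in KI_Chd7del against KI, 1 rose and 2 fell; and in KI_Chd7del against WT, 2 rose and 1 fell. With the column total, KI against WT had 8 higher and 1 lower and KI_Chd7del against WT 10 and 0. With upper-quartile scaling these were 4 and 5, and 2 and 3. Quantile normalisation gave 7 and 1 in KI_Chd7del against WT, and it and upper-quartile scaling each gave 3 and 2 in KI_Chd7del against KI. Runx1 had 4645, 4452 and 4475 in KI_Chd7del, 6342, 5794 and 7589 in KI, and 3036, 2841 and 2929 in WT libraries, without overlap. It rose by 1.15 in KI over WT (adjusted p = 6.04e-06), fell by 0.53 in KI_Chd7del against KI (adjusted p = 0.00179) and was 0.62 above WT in KI_Chd7del (adjusted p = 0.000439), the same order of groups as Chd2 and Chd8. Wdr5, the scaffold of histone methyltransferase complexes, had the reverse order: -0.73 in KI against WT (adjusted p = 1.49e-06), 0.38 in KI_Chd7del against KI (adjusted p = 0.000267) and -0.35 in KI_Chd7del against WT (adjusted p = 0.000215). Pbrm1, a PBAF subunit, rose by 0.38 in KI over WT (adjusted p = 6.57e-05) and fell by 0.29 in KI_Chd7del against KI (adjusted p = 0.00125). Cbfb, counted as a whole gene, did not pass in any comparison, at -0.06, -0.01 and -0.07 on the log2 scale in KI against WT, KI_Chd7del against KI and KI_Chd7del against WT.

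Of 13 ATPases of other remodeller families, 12 passed the filter on low values. Of these, 9 rose and 3 fell in KI against WT, with a median of 0.30, against 58.9% of all genes called in either direction. Upper-quartile scaling left 5 higher and 3 lower, and the column total 9 and 1. Srcap, which loads histone variant H2A.Z, rose by 0.79 (adjusted p = 2.04e-06), Ep400, a related ATPase, by 0.72 (adjusted p = 8.68e-05) and Ino80, the ATPase of the INO80 complex, by 0.58 (adjusted p = 9.88e-06), while Chd1l, a PARP-activated remodeller outside the 9 members, fell by 0.55 (adjusted p = 4.27e-05). In KI_Chd7del against KI 2 rose and 2 fell, and in KI_Chd7del against WT 7 rose, 2 fell and 3 did not pass, with a median of 0.28 (10 higher and 0 lower with the column total). Smarca1 was not tested, with 1 to 6 normalised reads per library. No difference between these lists and the CHD family was tested.

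**Figure D5:**
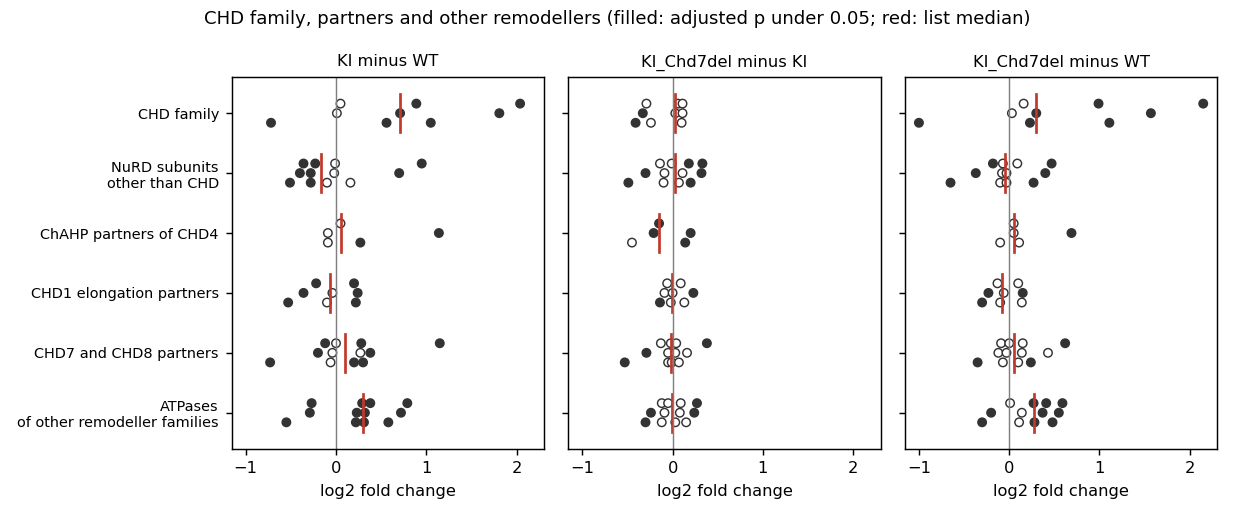
Log2 fold change (horizontal axis) of each tested gene of the CHD family and of 5 lists of partner or related genes, in KI against WT, KI_Chd7del against KI and KI_Chd7del against WT. Each point is 1 gene, filled where the adjusted p was under 0.05, and the red bar is the median of the list. With Chd5 included, the family median is 0.71 in KI against WT, 0.03 in KI_Chd7del against KI and 0.30 in KI_Chd7del against WT.

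The genes whose log2(value + 1) followed Chd7 most closely over the 9 libraries, among 10660 genes with a mean of at least 100, were Dnajc5 (Pearson r = 0.988), Zwilch (0.986), Slc16a6 (0.979), Ptpn22 (0.976) and Ankrd44 (0.975). Each of them was, like Chd7, highest within the KI group in KI library 2: Slc16a6 had 1763, 2196 and 1737 in KI. The choice by correlation with Chd7 over these same libraries favours such a shared peak. For Chd3 the closest genes were Tmem178 (0.996), Nt5c3b (0.996), Mboat1 (0.995), Cul9 (0.994) and Myh11 (0.994). The mouse gene Myh11, whose name the 3′ part of the fusion carries, had 187, 164 and 176 in KI_Chd7del, 219, 194 and 176 in KI, and 8, 9 and 5 in WT libraries. Values per gene cannot tell whether its reads came from the mouse gene or from the knock-in. These correlations are over 9 points in 3 groups that share their libraries, and they describe likeness only.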

How the data were processed

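Total RNA of 9 libraries was sequenced on Illumina instruments, per the labels' protocols. The deposited values are scores: by gaps among the low values, they appear to be read numbers per gene that the authors divided by a size factor per library and rounded. No source used here states this step. The submitters' processing notes name build GRCm38 and the tools STAR 2.4, RSEM, DESeq2 and CASAVA 1.8.2. Their roles, the strand setting and the annotation release are not given in the sources used here. No count test was run, because the values are normalised.

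limma 3.58.1 (R 4.3.3 with data.table, version 1.17.8) with a mean-variance trend was fitted to log2(value + 1) over 3 groups without a replicate block, for genes with at least 10 in at least 3 libraries. The log2(value + 1) scale understates changes of low genes. P-values are 2-sided, adjusted by Benjamini-Hochberg over all 15997 genes and called at 0.05. The 9 tests of ratios within a library were adjusted together. Intervals of differences are at 95%. The fit was tested on simulated data.

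The members and all gene lists were chosen with earlier results of these data known. Named are all members, up to 4 genes per list and comparison with the smallest adjusted p, and the 5 genes most correlated with Chd7 and with Chd3. Gene models and the printed coding stretches came from GENCODE M21 and promoters from RefSeq. Same-numbered libraries of different groups correlated by -0.153 to 0.109 in their deviations, so numbers were not taken as pairs. Alternatives were other pseudocounts (0.5, 16), filters (none, 50), scalings, limma without trend, limma-voom, fits of only the groups compared, a replicate block, the longest transcript as gene length and each library left out. Python 3.11.15 with numpy 2.4.6, pandas 2.3.3, scipy 1.17.1 and matplotlib 3.10.9 was used.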

Additional observations from a re-analysis of the deposited data

How the results depend on the processing

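The calls of Chd2, Chd3, Chd6, Chd7, Chd8 and Chd9 against WT, in both mutant groups, and those of Chd2 and Chd8 in KI_Chd7del against KI kept their direction and passed under every alternative run. Chd7 in KI_Chd7del against KI passed under none, with -0.39 to -0.10 and an adjusted p of 0.0721 to 0.263 when 1 library was left out. The count of members higher in KI_Chd7del than in KI was 0, but 1 with upper-quartile scaling (Chd6, 0.17), 2 with quantile normalisation (Chd6, 0.19, and Chd9, 0.16) and 0 to 1 when 1 library was left out (Chd4, 0.16). The share of higher calls in that comparison was 43.4%, against 53.6% with the column total less the late neutrophil genes, 56.3% with upper-quartile scaling and 57% with quantile normalisation. In KI_Chd7del against WT it was 49.7%, against 78.7% with the column total and 65.4% without the late neutrophil genes. Chd4 in KI_Chd7del against WT passed with the column total, with quantile normalisation (0.39, adjusted p = 0.000952), without the late neutrophil genes (0.27, 0.00601) and without KI_Chd7del library 1 (0.22, 0.013). In KI against WT it also passed with quantile normalisation (0.24, 0.00728). Chd5 in KI_Chd7del against WT was lost with quantile normalisation (0.0652) and when only these groups were fitted (0.0582).

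The log2 ratio of Chd3 to Chd4 in KI_Chd7del against KI, near 0, ran from -0.12 to 0.08 when 1 library was left out. With the longest transcript as length, Chd4 held 51.0%, 47.5% and 56.6% of the family level in KI_Chd7del, KI and WT. Some differences changed sign. In KI against WT these were Cbx1 and Cbx3 (0.14 each with the column total), Chd1 and Chd4 (-0.09 and -0.04 with upper-quartile scaling) and Chd1 (-0.02 with median-of-ratios scaling, -0.04 to 0.03 with 1 library left out). In KI_Chd7del against KI it was Supt5 (0.03 with quantile normalisation). In KI_Chd7del against WT these were Adnp2, Arid2 and Leo1 (0.14, 0.12 and 0.02 with the column total), Adnp2 (0.01 without the late neutrophil genes) and Arid2 (0.01 with quantile normalisation). Leo1 had been called lower there as deposited, at -0.23 in the limma fit (adjusted p = 0.0214). Of the results for partner genes, 1203 kept their call and direction, 84 lost the call, 23 gained one and 8 changed sign. The replicate block, whose numbers the labels do not say to be pairs, gave 9121, 5952 and 7411 calls in KI against WT, KI_Chd7del against KI and KI_Chd7del against WT. Without it there were 9429, 6464 and 7735. With the block Chd4 passed in KI_Chd7del against WT (0.16, adjusted p = 0.0387). The causes were not tested. Depth limits Chd5 alone among the members, at 1 to 17 normalised reads.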
